A study of Caenorhabditis elegans with 2 samples.

Results

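The nuclear hormone receptor genes of Caenorhabditis elegans were examined for binding of PHA-2, a Hex-type homeobox factor, in late embryos. The members are the protein-coding genes of the Ensembl release 115 annotation whose symbol is nhr- followed by a number. There were 269 of them among 19985 protein-coding genes. PHA-2 with GFP and FLAG at its C-terminus was expressed from a transgene (wgIs687) in strain OP687, which carries unc-119(tm4063), and was precipitated with an antibody against GFP. Chromatin came from whole embryos of mixed sex, 3 h after synchronization by egg bleaching. The series has 1 group of 2 biological replicates, no second condition and no second strain. Binding was read from peak lists, so the results are places and peak signals. Signal from whole embryos cannot be assigned to a cell type, and strong binding in few cells and weak binding in many cannot be told apart.

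Nuclear hormone receptors are transcription factors with a zinc-finger domain that binds DNA and a domain that, in many of them, binds a small lipophilic ligand such as a steroid or a fatty acid derivative. C. elegans has far more of them than flies or mammals. Most of the extra receptors arose by repeated duplication of an ancestral gene related to HNF4, a vertebrate regulator of liver metabolism, and a small set has clear counterparts in other animals. Well studied members control fat metabolism, moulting, detoxification and cell fate. PHA-2 itself is known for its part in forming the isthmus of the pharynx, the feeding organ.

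A promoter window ran from 1000 bp upstream to 500 bp downstream of each gene's 5′ end, and a gene was called when the summit of a peak lay in it. The optimal list, the peaks kept by the authors' irreproducible discovery rate procedure, held 878 peaks. The relaxed lists, which were its input and include background by their name, held 30000 peaks for the pooled replicates, 23371 for replicate 1 and 24336 for replicate 2. The optimal peaks were the 878 strongest of the pooled list, with signals of 120.2 and above in the authors' units, while the pooled list reached down to 33.6. Values called pooled are from the list of the pooled replicates, and they run higher than replicate signals, so that the 2 scales are not compared. Read depth is unknown for each list.

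The share of receptor genes with a summit was near that of all protein-coding genes. An optimal summit lay in the window of 6 of 269 receptor genes (2.23%, 95% Clopper-Pearson interval 0.823 to 4.79), against 2.8% of all protein-coding genes. A pooled relaxed summit lay in the window of 93 (34.6%, 28.9 to 40.6), against 39.6% of all protein-coding genes. For 1 of the 5000 strongest pooled summits the numbers were 27 (10%, 6.72 to 14.3) and 11.2%. A pooled summit with a q-value of 0.05 or less, by the deposited values, was found at 8 receptor genes (2.97%, 1.29 to 5.78), against 3.49% of all protein-coding genes. Each of these 4 shares lay below that of all protein-coding genes, and in all 4 the interval held the general share. The difference was not tested. Genes that share a peak or a neighbourhood are not independent, and the intervals cover counting of genes only.

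**Figure D1:**
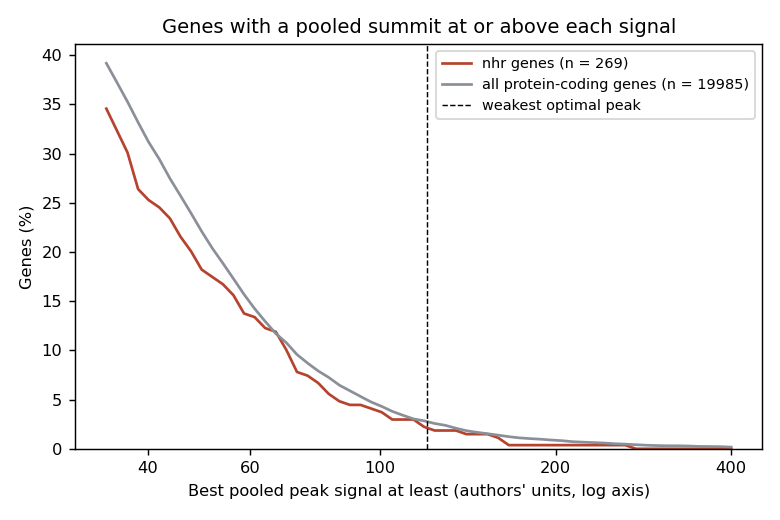
Share of genes (y axis, %) whose best pooled summit in the promoter window reached the signal on the log x axis, for 269 receptor genes and for 19985 protein-coding genes. The dashed line is the weakest optimal peak, at 120.2, and at a signal of 34 the curves stand at 34.6% and 39.2%. The receptor curve is the lower one at all signals drawn but 66.34, where it has 11.9% against 11.7%.

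The 6 receptor genes with an optimal summit were nhr-255, nhr-1, nhr-48, nhr-142, nhr-95 and nhr-59, and their sequences are shown because they differ in what lies under the summit. Each is the 151 bp of the WBcel235 (ce11) genome centred on the summit, read 5′ to 3′ on the strand of the receptor gene. Capitals mark the words that were searched on both strands: TAATTA and CAATTA (whose reverse complement is TAATTG), homeodomain core words, AGGTCA, the nuclear receptor half-site, and the B box of tRNA genes, an internal promoter element spelled here as GGTTCGA, any 2 bases, then CC. None of these words overlaps another in the windows shown.
nhr-255, chrX:15741990-15742140, plus strand: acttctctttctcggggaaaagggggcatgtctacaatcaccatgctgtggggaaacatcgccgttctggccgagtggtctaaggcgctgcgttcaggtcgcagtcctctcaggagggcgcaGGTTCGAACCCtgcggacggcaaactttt
nhr-1, chrX:17513620-17513770, plus strand: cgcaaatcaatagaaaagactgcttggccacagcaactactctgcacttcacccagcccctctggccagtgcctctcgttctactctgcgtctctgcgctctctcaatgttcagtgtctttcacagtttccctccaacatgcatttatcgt
nhr-48, chrX:15707561-15707711, plus strand: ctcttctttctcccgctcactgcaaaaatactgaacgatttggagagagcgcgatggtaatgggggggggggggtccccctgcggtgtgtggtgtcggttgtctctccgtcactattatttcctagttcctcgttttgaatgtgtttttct
nhr-142, chrV:5790909-5791059, minus strand: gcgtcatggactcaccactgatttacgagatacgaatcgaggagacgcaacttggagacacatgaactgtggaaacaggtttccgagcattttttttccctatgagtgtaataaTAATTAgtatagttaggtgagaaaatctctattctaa
nhr-95, chrV:19082470-19082620, minus strand: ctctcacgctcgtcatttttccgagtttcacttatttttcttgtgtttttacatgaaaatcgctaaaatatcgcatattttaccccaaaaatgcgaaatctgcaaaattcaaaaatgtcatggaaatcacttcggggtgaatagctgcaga
nhr-59, chrV:2278699-2278849, minus strand: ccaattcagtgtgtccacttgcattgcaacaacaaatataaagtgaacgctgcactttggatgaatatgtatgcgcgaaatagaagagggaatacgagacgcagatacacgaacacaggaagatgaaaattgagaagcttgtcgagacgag
The window of nhr-255 held the B box at position 123 of the sequence shown, and that of nhr-142 held TAATTA, which reads the same on both strands, at position 115. The other 4 held none of the words, which says only that these letters are absent from 151 bp. GC content spanned 35.8% at nhr-95 to 57.6% at nhr-255, beside a median of 47.0% over the 856 optimal summits on nuclear chromosomes.

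The strongest promoter summit of the family, at nhr-255, lay inside a tRNA gene. The nhr-255 peak (WBGene00014068, chrX:15741837-15742292) had a signal of 273 pooled (rank 144), 147 in replicate 1 (rank 148) and 126 in replicate 2 (rank 157). Its summit was 545 bp upstream of nhr-255 and 15 bp into ZK678.t1, a tRNA-Leu gene (chrX:15742050-15742133), and an antisense non-coding RNA gene, ZK678.11, also covers it. Both replicates placed it within 42 bp of the pooled summit. Of the optimal summits as a whole, 18.0% lay within 200 bp of a tRNA gene, and nhr-255 was the only 1 of the 6 receptor genes whose optimal summit did. Without such summits, 5 receptor genes (1.86%) had an optimal summit, against 2.6% of all protein-coding genes.

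The peaks of nhr-1 and nhr-48 lay between genes, upstream of the receptor genes, and had their own receptor gene as the nearest 5′ end of any annotated gene. nhr-1 (WBGene00003600, peak chrX:17513467-17513922) had a signal of 162 pooled, 86.8 in replicate 1 and 75.98 in replicate 2, with the summit 368 bp upstream. The replicate summits were 364 and 379 bp upstream, so the place was the same to within 11 bp of the pooled summit. A further optimal summit, with a signal of 132, lay 8104 bp upstream of nhr-1 and still had nhr-1 as its nearest gene start. nhr-48 (WBGene00003638, peak chrX:15707408-15707863), which belongs with daf-12 and nhr-8 to the group related to the vertebrate vitamin D receptor, had 160 pooled, 64.7 in replicate 1 and 95.4 in replicate 2. It was thus stronger in replicate 2, at rank 285 there and rank 942 in replicate 1, with the pooled summit 577 bp upstream.

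At nhr-142 and nhr-59 the summit was closer to the start of a neighbour that is transcribed the other way. nhr-142 (WBGene00018430) had 157 pooled, 89.6 in replicate 1 and 65.8 in replicate 2, with summits 431, 430 and 426 bp upstream. The start of F44E7.9 was 246 bp from the pooled summit. nhr-59 (WBGene00003649) had 124 pooled, 69.7 in replicate 1 and 55.9 in replicate 2, and its summit was 509 bp upstream of nhr-59 but 42 bp upstream of fbxa-137, an F-box gene. Which gene such a peak belongs to cannot be told from the lists. nhr-95 (WBGene00003685, peak chrV:19082317-19082772) differed from the others in having its summit in a coding exon, 96 bp downstream of the 5′ end. It had 139 pooled, 57.4 in replicate 1 and 78.6 in replicate 2, and the replicate summits were 174 and 218 bp downstream, so the replicate 2 summit was 122 bp from the pooled one.

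Just under the optimal threshold stood nhr-32 with a pooled signal of 117, nhr-47 with 116, nhr-133 with 103, nhr-237 with 102 and nhr-145 with 99.6. nhr-47 was close to its gene start, 28 bp upstream in the pooled list, 35 bp in replicate 1 and 27 bp in replicate 2, with replicate signals of 63.8 and 53.4. At nhr-133 the replicates gave 52.5 and 53.4, and at nhr-145 51.96 and 51.7. The nhr-32 summits were spread further, 74 bp from the pooled summit in replicate 1 and 116 bp from it in replicate 2. Signals declined without a gap across the threshold, from 124 at nhr-59 to 117 at nhr-32.

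**Figure D2:**
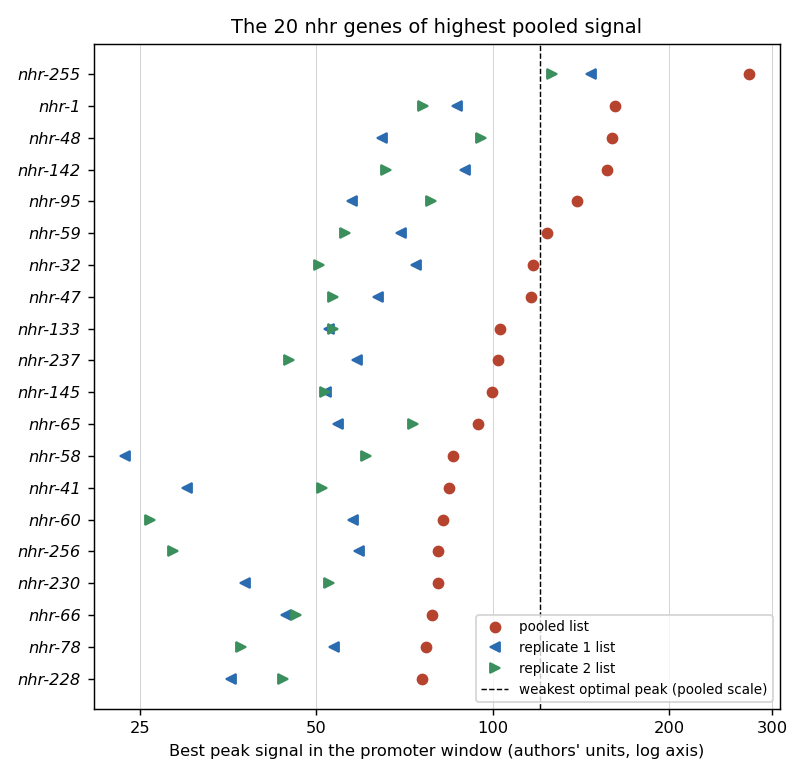
Best signal in the promoter window on a log x axis for the 20 receptor genes of highest pooled signal (rows), with 1 marker each for the pooled, replicate 1 and replicate 2 lists. The dashed line at 120.2 is the weakest optimal peak on the pooled scale, and 6 genes lie to its right. nhr-58, nhr-41, nhr-60 and nhr-256 have replicate signals that lie far apart.

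Further down, the replicates gave unequal values at several genes. nhr-65 had 94.3 in the pooled list, with replicate summits 427 and 54 bp upstream that lay 226 and 147 bp from the pooled summit. At nhr-58 the pooled signal of 85.7 was met by 60.8 in replicate 2, while the best replicate 1 summit, with 23.5, was 1053 bp away. nhr-41, the counterpart of Drosophila Hr78, had 84.3 pooled, 30.0 in replicate 1 and 51.2 in replicate 2, with both replicate summits within 3 bp of the pooled one. nhr-60, which acts in embryonic epidermal cells, had 82.4, 57.8 and 26.0 in the same lists, 814 bp upstream. The rest of the 20 strongest were nhr-256 (80.8 pooled), nhr-230 (80.8), nhr-66 (78.8), nhr-78 (76.8) and nhr-228 (75.6).

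Summits of the 2 replicates were compared with each other and with the pooled list. In the promoter window, 91 receptor genes (33.8%) had a relaxed summit in replicate 1, against 33.9% of all protein-coding genes, and 85 (31.6%) in replicate 2, against 34.6%. All 3 relaxed lists had a summit at 47 (17.5%), against 20.6% of all protein-coding genes. A summit in each replicate with none in the pooled list was found at 5 (1.86%), against 0.931% of all protein-coding genes. A replicate summit within 100 bp of the best pooled summit was present in both replicates for 27 of the 93 genes with a pooled summit (29.0%), in 1 of them only for 51 (24 in replicate 1, 27 in replicate 2) and in neither for 15. For the 27 genes among the 5000 strongest pooled summits, 19 (70.4%) were matched in both. Over all protein-coding genes the shares were 33.5% and 79.3%. Both replicate lists end at a signal of 21.8, and replicate signals run lower than pooled ones. Weak pooled peaks can therefore lack a match through this floor, and a higher share among strong peaks is partly built in. Across the 52 receptor genes with a value in both replicates, the rank correlation of the signals (Spearman's rho) was 0.541 and Pearson's r of their log10 values was 0.667. Without nhr-255, r was 0.591, and over the 4296 protein-coding genes with both values rho was 0.534 and r 0.740. These are descriptions across genes of the same 2 libraries, which share 1 control that is not analysed here.

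**Figure D3:**
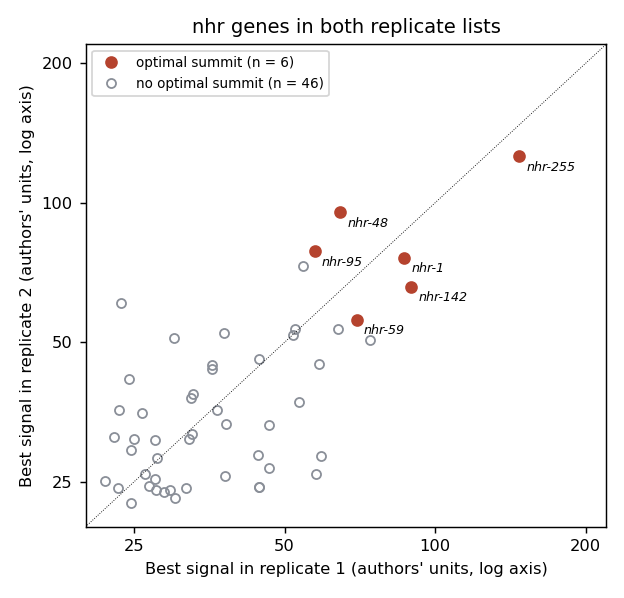
Best signal in replicate 1 (x axis, log) and replicate 2 (y axis, log) for the 52 receptor genes with a summit in both lists, filled for the 6 with an optimal summit. The dotted line is equality, and nhr-255 stands highest at 147 and 126.

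Among 11 nhr- named receptors listed for their counterparts in other animals, 7 had a pooled relaxed summit, beside 39.6% of all protein-coding genes. The summit of 1 of them, nhr-48, was optimal, beside 2.8% of all protein-coding genes. The 5 receptors without an nhr- symbol, daf-12 among them, are outside this list and had no pooled summit. After nhr-48 and nhr-41 came nhr-8, a receptor of xenobiotic and sterol metabolism, with 65.9, but its summit was 961 bp upstream and 23 bp from the start of mrps-24, a mitochondrial ribosomal protein gene. nhr-239 had 54.98, with a summit 995 bp upstream. nhr-85, the counterpart of vertebrate Rev-erb and fly E75, had 52.4, and nhr-23, the moulting regulator related to vertebrate ROR and fly Hr3, had 49.3 in the pooled list, 35.8 in replicate 2 and no summit in replicate 1. nhr-25, related to SF-1 and Ftz-F1 and needed in epidermal development, had 37.4. No pooled summit was found for nhr-67, the tailless-type regulator of neuron and uterine fate, for the NR4A-type gene nhr-6, or for nhr-91 and nhr-111. The 7 pooled signals ran from 37.4 to 160 with a median of 54.98, beside a median of 52.4 over all protein-coding genes with a pooled summit.

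Of the receptors of metabolism, 10 of 14 had a pooled relaxed summit, none was optimal, and 1 (nhr-66) was among the 5000 strongest peaks, beside 39.6%, 2.8% and 11.2% of all protein-coding genes. nhr-66, which acts with nhr-49 in lipid metabolism, had 78.8 pooled, 44.4 in replicate 1 and 46.1 in replicate 2, with the pooled summit 342 bp downstream. nhr-49, a regulator of fatty acid oxidation and desaturation, had 52.4, 23.3 and 35.7 in the same lists, 217 bp upstream. nhr-76 had 50.1, nhr-64 had 48.6, nhr-62, a gene needed for long life under dietary restriction, had 45.6, and nhr-114, which protects the germline on poor diets, had 44.8. The pair that activates the propionate shunt gave 44.3 at nhr-10 and 39.0 at nhr-68, and nhr-69 had 36. nhr-80, a regulator of fat desaturases, had 32.1 in replicate 1, 278 bp upstream, and 31.0 in replicate 2, 345 bp downstream, but no pooled summit. nhr-13 too had a summit in each replicate and none in the pooled list, and nhr-28 and nhr-86 had none at all. The median over the 10 was 47.1.

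Of 8 receptors of development, 4 had a pooled relaxed summit and none an optimal one, beside 39.6% and 2.8% of all protein-coding genes. These were nhr-60, nhr-85, nhr-23 and nhr-25, whose values stand above. nhr-2, which is active in the early embryo, nhr-6, nhr-40, a gene of muscle and embryonic development, and nhr-67 had no pooled summit, nhr-2 and nhr-6 only a replicate 1 summit, with 23.8 and 24.8.

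Counted together, 17 of the 27 receptor genes on these 3 lists (63.0%) had a pooled relaxed summit, against 76 of the other 242 (31.4%) and 39.6% of all protein-coding genes. The listed receptors lay mostly outside chromosome V, which held 6 of the 27 and 161 of the 242. At the chromosome's own share for protein-coding genes, the listed receptors would have 41.2% and the others 34.6%. Among genes with a summit, the median signal was 50.1 for the listed receptors, 54.8 for the others and 52.4 for all protein-coding genes. Among the 5000 strongest were 4 (14.8%) and 23 (9.50%), against 11.2% of all protein-coding genes. These values describe the 27 genes, all of them nhr- named, and not a kind of receptor. The 5 receptors without an nhr- symbol are outside the 3 lists, and none of them had a pooled summit. No test was made, and the lists were chosen with results of these data known.

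None of the 5 receptor genes without an nhr- symbol had a summit in any relaxed list. These are daf-12, the receptor of dafachronic acids, fax-1 and unc-55, which set neuron identity, odr-7, a regulator of an olfactory neuron, and sex-1, a sex determination gene. A pooled summit was present at 34.6% of the 269 nhr- named genes and at 39.6% of all protein-coding genes. With 5 genes only, the count cannot set these receptors apart from other genes, and the difference was not tested. Of 7 genes for coregulators and ligand synthesis, 4 had a pooled summit and 2 an optimal one, beside 39.6% and 2.8% of all protein-coding genes. cbp-1, which encodes the CBP/p300 acetyltransferase, had 251 pooled, 129 in replicate 1 and 130 in replicate 2, with the summit 914 bp upstream and nearer to R10E11.10. din-1, a corepressor of DAF-12, had 138, with its summit 16 bp from the start of ZK20.8. mdt-15, the Mediator subunit that works with NHR-49, had 36.2, near the bottom of the list. daf-9 and daf-36, which make dafachronic acids, had no summit.

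Of 9 genes known as receptor targets, 4 (44.4%) had a pooled summit and 1 an optimal one, beside 39.6% and 2.8% of all protein-coding genes. hach-1, an enzyme of the propionate shunt, had 387 pooled, 174 in replicate 1 and 212 in replicate 2. Its summit was 309 bp upstream of hach-1 and 207 bp from the start of nmad-1. Of the others, hphd-1 had 59.3, icl-1 49.4 and ech-6 37.3. acs-2, fat-6, fat-7 and acdh-1 had no summit in any list, and fat-5 had 23.7 and 23.9 in the replicates and none in the pooled list.

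Optimal summits also lay inside receptor genes. Altogether 7 receptor genes (2.60%) held an optimal summit anywhere in the gene body, against 1.46% of all protein-coding genes, and 1 of them was nhr-95. Receptor genes were also longer, with a median of 2309 bp against 2026 bp, and the part of length in the count was not tested. The other 6 genes held 7 summits, all of them in introns of the receptor gene. The strongest, in nhr-17, had a signal of 425 pooled (rank 53), 233 in replicate 1 and 196 in replicate 2, 2625 bp downstream of the 5′ end and 1 bp into C02B4.t2, a tRNA-Tyr gene. A weaker summit of the same gene, 205 bp from the start of that tRNA gene, had 130. In nhr-41, a summit with 158 pooled, 63.9 in replicate 1 and 90.7 in replicate 2 lay 2051 bp downstream, inside Y104H12A.t1, a tRNA-Glu gene.

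The windows around these tRNA genes are shown because both hold the B box, as the promoter summit of nhr-255 does. The strand is again that of the receptor gene, and the capitals are as above.
nhr-17, chrX:12665154-12665304, minus strand: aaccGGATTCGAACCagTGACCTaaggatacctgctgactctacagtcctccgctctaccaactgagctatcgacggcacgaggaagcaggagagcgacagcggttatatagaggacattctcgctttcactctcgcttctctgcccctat
nhr-41, chrIV:1388191-1388341, plus strand: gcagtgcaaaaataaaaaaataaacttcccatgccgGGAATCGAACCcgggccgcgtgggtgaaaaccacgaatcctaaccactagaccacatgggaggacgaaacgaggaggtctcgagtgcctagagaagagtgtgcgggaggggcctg
In both, the B box is on the other strand than the receptor gene, at position 5 in nhr-17 and 37 in nhr-41. The nhr-17 window also held AGGTCA on that strand, at position 18. Over the 856 optimal nuclear summits, 10.3% of the 151 bp windows held the B box, and over all 29976 nuclear pooled summits 1.05%.

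The 4 introns with no tRNA gene within 200 bp of the summit were in nhr-3, nhr-65, nhr-46 and nhr-21. nhr-3 had 180 pooled, 117 in replicate 1 and 57.4 in replicate 2. nhr-65 had 175, 105 and 60.2, nhr-46 had 153, 84.2 and 66.8, and nhr-21 had 129, 90.05 and 46.3 in the same lists. In all 4 the replicate 1 value was the higher. The nhr-65 summit lay 3918 bp downstream of its own 5′ end and 3558 bp upstream of nhr-230, the next receptor gene, whose start was nearer. By the nearest 5′ end of any gene at any distance, 7 receptor genes (2.60%) were assigned an optimal summit, against 2.03% of all protein-coding genes. These were nhr-1, nhr-48, nhr-95, nhr-230, nhr-21, nhr-61, with its summit 4079 bp upstream, and nhr-45, with its summit 2365 bp upstream. By window, gene body or nearest start, 15 of the 269 receptor genes (5.58%) had some link to an optimal summit, against 4.2% of all protein-coding genes.

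Most best pooled summits of receptor genes lay upstream of the 5′ end, 57 of 93 (61.3%), against 72.8% of the 7922 of all protein-coding genes. The other 36 (38.7%) lay downstream, against 27.2%, and the median place was 78 bp upstream against 226 bp. Of the 6 optimal summits, only that of nhr-95 lay downstream. The relaxed list includes background, and these shares were not split by signal. The nearest 5′ end of any gene was the receptor's own for 80 of the 93 (86%), against 74.6%. As a share of all genes, with or without a summit, this was 29.7% against 29.6%. Of the other 13, 7 had a protein-coding gene nearer, 3 a non-coding RNA gene, 2 a piRNA gene and 1 a tRNA gene. Few receptor windows held another protein-coding start, on either strand: 22 of 269 (8.18%), against 21.6% of all protein-coding genes. Of these 22, 2 had an optimal summit (9.09%, against 6.11% of all such genes), and of the 247 others 4 (1.62%, against 1.89%). The differences were not tested.

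**Figure D4:**
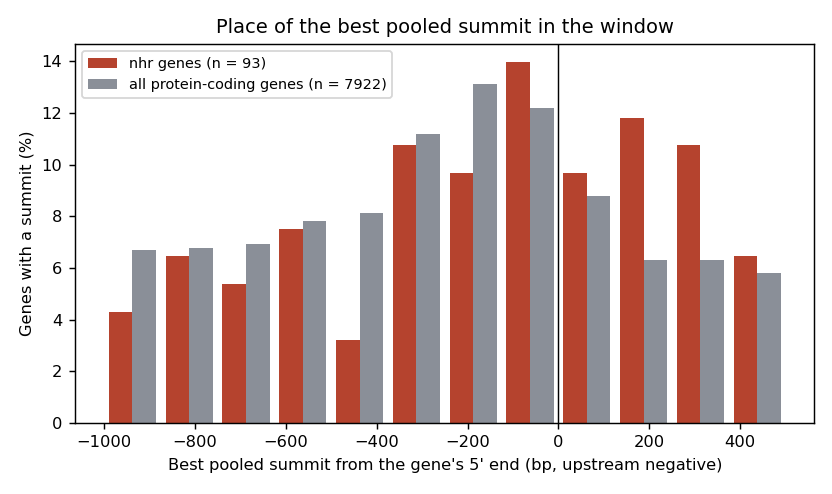
Distance of the best pooled summit from the gene's 5′ end (x axis, bp, upstream negative) as a share of genes with a summit (y axis, %), for 93 receptor genes and 7922 protein-coding genes in bins of 125 bp. The receptor bars are the taller ones in all 4 bins downstream of the start, which hold 38.7% of their summits against 27.2%.

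Receptor genes are concentrated on chromosome V, which held 167 of the 269, and on it they were called at about the local share. Of the 167, 59 (35.3%) had a pooled relaxed summit and 3 (1.80%) an optimal one, against 31.6% and 1.80% of all protein-coding genes there. On chromosome X, 9 of 23 (39.1%) had a pooled summit and 3 (13.0%) an optimal one, against 36.1% and 2.42%. The 3 on X were nhr-255, nhr-1 and nhr-48, of which nhr-255 is the tRNA case. The 79 receptor genes of the other 4 chromosomes had no optimal summit, and 3.2% of all protein-coding genes on those chromosomes had one. Taking 3 counts over 79 genes as an upper limit, which is not a Clopper-Pearson limit, allows a share of up to 3.8%. If receptor genes had the protein-coding share of the chromosome on which each lies, 35.2% would have a pooled summit and 2.23% an optimal one, and 34.6% and 2.23% did.

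**Figure D5:**
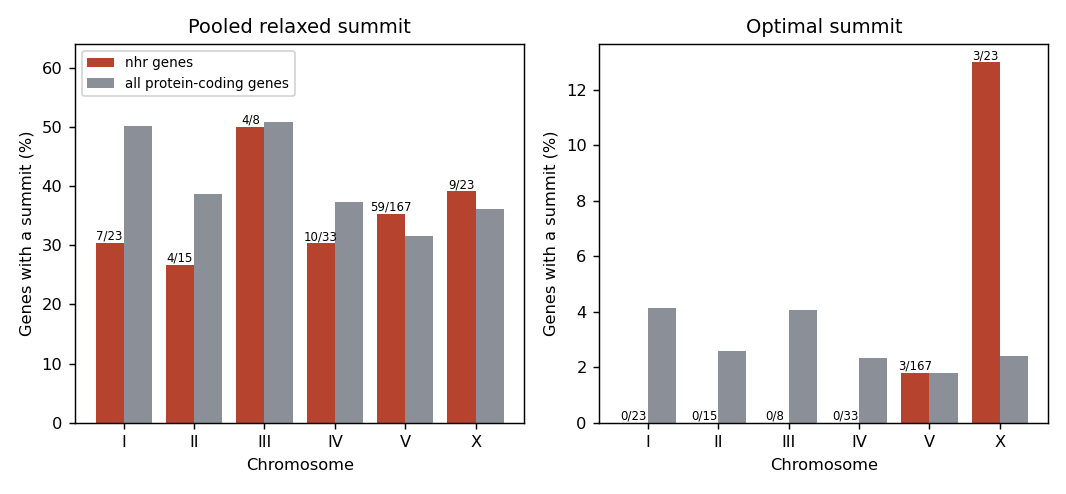
Share of genes (y axis, %) with a pooled relaxed summit (left) and an optimal summit (right) on each chromosome, for receptor genes, with their counts over the bars, and for all protein-coding genes. Chromosome V has 59 of 167 and 3 of 167 receptor genes with a summit, close to the bars for all genes, and chromosome X has 3 of 23 with an optimal one.

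Many receptor genes lie near others of the family: 126 (46.8%) had the 5′ end of another member within 5 kb. A window reaches at most 1000 bp from its start, so starts 5 kb apart cannot share a summit. How often protein-coding genes in general share a best summit was not counted. The 93 receptor genes had 92 distinct best pooled summits, with a single pair sharing one. The only pair was nhr-107 and nhr-42, with a signal of 70.7 pooled, 44.4 in replicate 1 and 24.3 in replicate 2, at 749 bp upstream of nhr-107 and 979 bp upstream of nhr-42. Family members can have similar sequences, and how reads that fit several copies were placed is not given in the sources used here.

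The words searched were counted at the best summits and in promoters, beside all summits and promoters of the same length. In the 151 bp around the 92 distinct summits, TAATTA was present in 8 (8.70%), against 7.20% of all nuclear pooled summits, and CAATTA in 5 (5.43%), against 11.0%. AGGTCA was present in 3 (3.26%), against 3.72%, and the B box in 1 (1.09%), against 1.05%. In the 300 bp from 250 bp upstream of the start, TAATTA occurred in 28 receptor promoters (10.4%), against 15.5% of nuclear protein-coding promoters, and CAATTA in 54 (20.1%), against 23.6%. AGGTCA occurred in 29 (10.8%), against 8.27%. Split by summit, AGGTCA was in 15 of the 93 receptor promoters with a pooled summit (16.1%) and 14 of the 176 without one (7.95%). TAATTA was in 8 (8.60%) and 20 (11.4%) of them, and CAATTA in 20 (21.5%) and 34 (19.3%). None of these differences was tested. The split by summit was not made for all protein-coding promoters, so it has no general share beside it. A 300 bp promoter is also shorter than the window for summits and need not hold the summit. A word match is a description of letters, and neither the presence nor the absence of one says that a factor is bound.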

How the data were processed

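Chromatin immunoprecipitation with sequencing was done in 2 biological replicates. Per the labels, coordinates are on ce11 or ce10. Which aligner and caller made the peaks is not given in the sources used here. The authors deposited, per assembly, relaxed peak lists of each replicate and of the pooled replicates, and an optimal list derived from these. Each peak has the authors' signal value, a q-value, deposited as its −log10, and the offset of its summit. Only the 4 ce11 lists were used. Read depth is unknown.

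Genes, biotypes and 5′ ends were taken from Ensembl release 115 on WBcel235, the same assembly as ce11, and tRNA names from RefSeq. For each gene the summit of highest signal in the window was kept, summits within 200 bp of a tRNA gene were marked, and sequence was read from the RefSeq WBcel235 genome. Shares printed with an interval have 95% Clopper-Pearson intervals from SciPy 1.17.1. The upper limit for the 79 receptor genes outside chromosomes V and X is 3 counts over 79. No test was made, since the series has 1 group. The search for summits was checked on simulated data.

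The members and the fixed lists were chosen with earlier results of these data known. Named genes are those with an optimal summit, the 20 of highest pooled signal, those of the lists of shared, metabolic and developmental receptors, the 5 just under the optimal threshold, and nearer neighbours. Genes of the other 3 lists (receptors without an nhr- symbol, coregulators and ligand synthesis, targets) were named outside this rule, with their values seen. Genes with an optimal summit in the body or by the nearest start, and nhr-107, nhr-42 and the genes without a pooled summit but one in both replicates, were named after their values were seen. Protein sequences were not used here.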

Additional observations from a re-analysis of the deposited data

How the results depend on the processing

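With a window of 500 bp upstream only, 2 receptor genes had an optimal summit (0.743%, against 1.92% of all protein-coding genes), 44 a pooled one (16.4% against 19.9%) and 16 a summit in all 3 relaxed lists (5.95% against 8.88%). A best summit nearest to their own start was found at 40 (14.9% against 15.3%). The median signal of genes with a summit was 49.2 (54.9 for all). With 2000 bp upstream to 500 bp downstream, 7 had an optimal summit (2.60% against 3.68%), nhr-70 being added, 71 a summit in all 3 lists (26.4% against 29.4%), and the median was 53.5, as for all. With the starts of all transcripts, nhr-41 was added to the 6, through its intronic tRNA gene (2.60% against 3.11%), and the median was 49.97 (53.3 for all). The 439 strongest optimal peaks kept nhr-255, nhr-1 and nhr-48, 3 genes (1.12% against 1.41%), and the 5000 strongest pooled peaks gave 27 (10% against 11.2%). With 1 replicate alone, its 878 strongest peaks gave 5 to 6 receptor genes (1.86% to 2.23%, against 2.83% and 2.45%), the median was 29.6 to 31.0 on the lower replicate scale, and 85 to 91 had a summit (31.6% to 33.8%, against 34.6% and 33.9%), which by construction is above the count for all 3 lists. nhr-255, nhr-1 and nhr-142 were among the strongest of both replicates. nhr-59 and nhr-32 were so in replicate 1, and nhr-48, nhr-95 and nhr-65 in replicate 2. The other alternatives, among them overlap of a peak by 1 bp, summits away from tRNA genes and, chosen after seeing the data, the q-value of 0.05, moved each count by less than 1.5 times. The cause of these changes was not tested.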

Other observations

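In 5 receptor genes there was a relaxed summit in each replicate but none in the pooled list. The share was 1.86%, against 0.931% of all protein-coding genes, and the difference was not tested. The 5 were nhr-121 (24.5 in replicate 1 and 41.6 in replicate 2), nhr-13 (21.9 and 25.1), nhr-150 (28.7 and 23.7), nhr-217 (27.7 and 24.0) and nhr-80 (32.1 and 31.0). In each of them the replicate 1 summit lay downstream of the 5′ end and the replicate 2 summit upstream, except nhr-80, where it was the other way round.

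Along chromosome V, cut into 3 parts of equal length, a pooled summit was found at 29 of 78 receptor genes of the left part (37.2%, against 31.5% of all protein-coding genes there), at 13 of 41 of the middle part (31.7% against 27.4%) and at 17 of 48 of the right part (35.4% against 36.2%). The differences were not tested.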
